A study of Homo sapiens with 9 samples.

Results

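The 7 genes described here encode the keratins of the basal layer of stratified epithelia (KRT5, KRT14, KRT15) and the keratins that epithelia make under stress or when wounded (KRT6A, KRT6B, KRT16, KRT17). They were taken by symbol from a table of 31004 genes, in which each of the 7 matched 1 identifier. The set was chosen by keratin class and with the FPKM of these genes in the same 9 libraries, and their differences between the groups, already known. Differences given for them between groups are therefore a description, with no test of their own. 6 of the 7 passed the filter on low values, as did 11875 of all genes, and KRT6A did not.

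Keratins are the intermediate filament proteins of epithelial cells. A filament is built from pairs of 1 type I chain and 1 type II chain, and the chains are made in characteristic partnerships: KRT5 with KRT14 in basal cells, KRT6A or KRT6B with KRT16 or KRT17 in activated, wounded or fast-dividing epidermis, and KRT8 with KRT18 in simple and luminal epithelium. In breast pathology, staining for KRT5, KRT14 and KRT17 is widely used to recognise basal-like tumours.

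The cells were MDA-MB-468, an established human line of basal-like, triple-negative breast cancer. All groups were infected with lentivirus at an MOI of 10 and kept in puromycin at 1 µg/mL. Library preparation started from 2 µg of total RNA. The control group carried the hairpin shNC and has the genotype label WT, and the other groups carried shFAM83H-AS1_1 or shFAM83H-AS1_2, each aimed at the long noncoding RNA FAM83H-AS1. Each group had 3 libraries, with 15258700 to 18100485 reads assigned to genes. Nothing in the labels tells whether replicates were grown separately, and they name no clones.

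FPKM, the unit of all levels here, counts the reads of a gene relative to its model's length and to library depth. The target (under the symbol IQANK1) had a mean of 16.5 ± 1.98 FPKM in control cells (SD, n = 3). It was at 5.95 ± 1.27 FPKM with shFAM83H-AS1_1 and at 7.98 ± 0.551 with the other hairpin. In the limma fit described below, the target was called with shFAM83H-AS1_1 (log2 difference -1.35, limma adjusted p = 0.00637). With shFAM83H-AS1_2 it was not (-0.96, limma adjusted p = 0.142). Among genes that check the line, SMAD4, known to be deleted in it, was at 0 to 0.0338 FPKM and ESR1 at 0.121 to 0.316. EGFR, known to be amplified and abundant in it, was at 5.29 to 10.3 FPKM, a low level that goes against that knowledge, so the line is named here as labelled. Of 8 myoepithelial markers, MME was at 4.08 to 16.8 FPKM and TAGLN at 0.405 to 1.03, while the contractile markers ACTA2 and MYH11 stayed at or below 0.136 and 0.188. The leukocyte marker PTPRC did not exceed 0.00714 FPKM. In bulk RNA, fewer cells with a transcript and less of it per cell cannot be told apart. The third shFAM83H-AS1_1 library stood apart from the other 8, with a first principal component score of 61.2 against -24.3 to 5.7, and the keratins' differences from shNC are given with and without it.

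**Figure D1:**
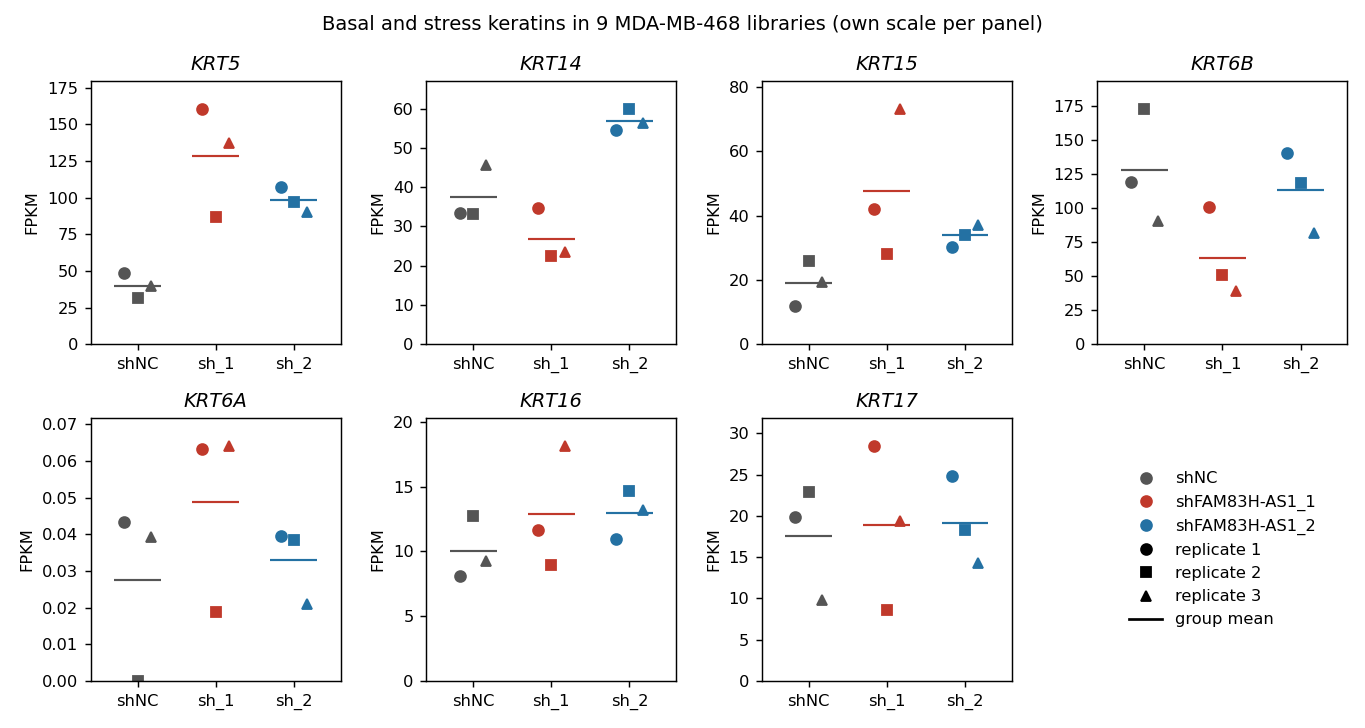
FPKM of each of the 7 keratins in the 9 libraries, with 1 point per library, its shape marking the replicate, and a line for the mean of each group of 3 (sh_1 and sh_2 stand for shFAM83H-AS1_1 and shFAM83H-AS1_2). Each panel has its own scale, and KRT6A stays under 0.07 FPKM throughout.

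In control cells the most abundant of these transcripts per unit of length was KRT6B, at 127 ± 41.4 FPKM (SD, n = 3). KRT5 followed at 40.0 ± 8.52 and KRT14 at 37.5 ± 7.15 FPKM, with overlapping libraries. KRT15 at 19.1 ± 6.94, KRT17 at 17.5 ± 6.87 and KRT16 at 10.0 ± 2.40 FPKM came next, each overlapping its neighbour in the order, and KRT6A was last at 0.0275 FPKM. With shFAM83H-AS1_1 the order was KRT5, KRT6B, KRT15, KRT14, KRT17 and KRT16, and the libraries of KRT5 and KRT6B overlapped. With shFAM83H-AS1_2 it was KRT6B, KRT5, KRT14, KRT15, KRT17 and KRT16, and again KRT6B and KRT5 overlapped. KRT16 and KRT17 kept the lowest places among the 6 in all groups.

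KRT6A and KRT6B encode near-identical chains, so their levels depend on where reads of each gene were placed. Over the 1692 coding bases of each, KRT6A and KRT6B differed at 42 positions (97.5% identical), with a longest shared run of 269 bases. KRT6C, the other copy, differed from KRT6A at 35 positions and from KRT6B at 25. A stretch of 60 coding bases is shown for the 3 copies because the reads that tell them apart must cover such positions. It was chosen, inside a single exon, as the stretch in which KRT6A and KRT6B differ most, so it is not typical of the coding sequence. The sequences are from GENCODE release 29 on GRCh38, on the minus strand and written 5′ to 3′, at chr12:52491555-52491614 for KRT6A, chr12:52450439-52450498 for KRT6B and chr12:52472099-52472158 for KRT6C, with capitals where the copies differ.
KRT6A: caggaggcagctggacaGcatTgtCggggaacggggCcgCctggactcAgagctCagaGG
KRT6B: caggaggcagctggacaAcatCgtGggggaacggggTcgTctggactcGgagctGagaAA
KRT6C: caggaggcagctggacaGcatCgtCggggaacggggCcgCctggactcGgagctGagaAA
In this stretch KRT6A differed from KRT6B at 9 bases and KRT6C from KRT6B at 4.

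The 3 copies were far apart in level despite this likeness. KRT6B (ENSG00000185479, hg38 chromosome 12, 52446651 to 52452146, minus strand) drew 34780 reads over the 9 libraries, KRT6A (ENSG00000205420, chromosome 12, 52487176 to 52493257, minus strand) 16 and KRT6C 18. KRT6A had 2, 0 and 2 reads in the shNC libraries, 3, 1 and 3 with shFAM83H-AS1_1, against 2, 2 and 1 with shFAM83H-AS1_2, and no difference was detectable at this depth. How reads that match more than 1 copy were treated is not given in the sources used here, so the few reads of KRT6A and KRT6C cannot be told apart from reads of KRT6B placed there.

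Turning to the basal chains, KRT5 (ENSG00000186081, chromosome 12, 52514575 to 52520530, minus strand) is the type II chain of the basal layer. It was at 48.6, 31.5 and 39.9 FPKM in the shNC libraries, at 160.4, 86.7 and 137 with shFAM83H-AS1_1, against 107, 97.1 and 90.3 with shFAM83H-AS1_2. Every library of either knockdown was above every control library, and the group means were 321% and 246% of control. Fitted on log2(FPKM + 1), the difference from shNC was 1.63 with shFAM83H-AS1_1 and 1.29 with shFAM83H-AS1_2 (SE 0.22 for each). Without the third shFAM83H-AS1_1 library the first of these was 1.56.

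KRT14 (ENSG00000186847, chromosome 17, 41582279 to 41586895, minus strand) is the type I partner of KRT5 and did not follow it. Its FPKM were 33.5, 33.3 and 45.8 in shNC, 34.8, 22.5 and 23.5 with shFAM83H-AS1_1, against 54.7, 59.9 and 56.4 with shFAM83H-AS1_2. The shFAM83H-AS1_2 libraries were the 3 highest of the 9 and close to each other, while 2 of the shFAM83H-AS1_1 libraries were the lowest and the other lay among the controls. The log2 differences from shNC were -0.48 and 0.61, and shFAM83H-AS1_2 stood 1.08 above shFAM83H-AS1_1 (SE 0.18 for each). Without the third shFAM83H-AS1_1 library the first of these was -0.39, and with library weights it was -0.15. The means of KRT5 thus lay above control with both hairpins, and those of KRT14 below it with shFAM83H-AS1_1 and above it with shFAM83H-AS1_2. Neither difference of KRT14 from shNC was called (limma adjusted p = 0.152 and 0.539). KRT5 was called with shFAM83H-AS1_1 only (limma adjusted p = 0.0158, and 0.148 with shFAM83H-AS1_2).

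The ratio of KRT5 to KRT14, looked at after their values had been seen, puts this per library. It was 1.45, 0.947 and 0.871 in shNC, 4.61, 3.85 and 5.85 with shFAM83H-AS1_1, against 1.96, 1.62 and 1.60 with shFAM83H-AS1_2. The 3 groups did not overlap in it: the FPKM of KRT5 and KRT14 were near equal in control cells, and with shFAM83H-AS1_1 that of KRT5 was higher by a factor of at least 3.85. The size of the ratio in any library depends on the model lengths in FPKM, 4133 bases for KRT5 and 2255 for KRT14.

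**Figure D2:**
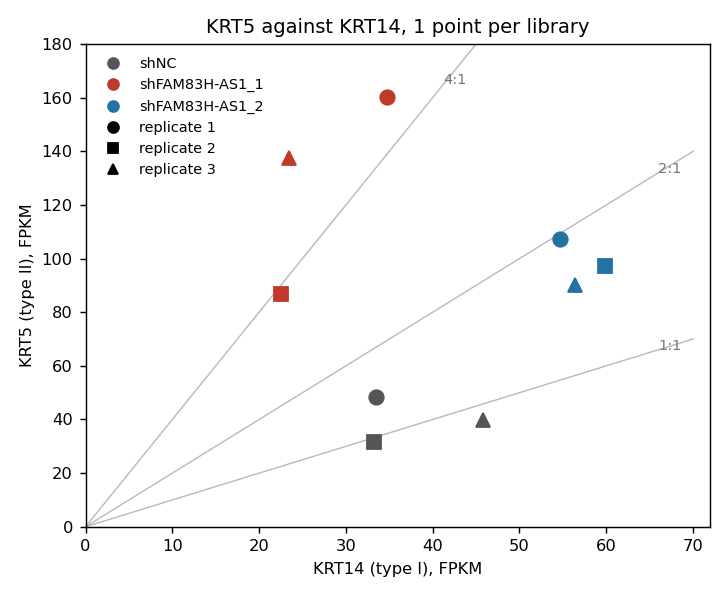
KRT5 (vertical axis, FPKM) against its partner KRT14 (horizontal axis, FPKM), with 1 point per library and the groups by colour. The control libraries sit low and in the middle, the shFAM83H-AS1_1 libraries high and to the left, with KRT14 at 22.5 to 34.8, and the shFAM83H-AS1_2 libraries high and to the right, with KRT14 at 54.7 to 59.9.

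KRT15 (ENSG00000171346, chromosome 17, 41513745 to 41522529, minus strand) is a type I chain of basal cells and a marker of hair follicle stem cells. Its FPKM were 12.04, 25.9 and 19.3 in shNC, 42.1, 28.1 and 73.1 with shFAM83H-AS1_1, against 30.4, 34.1 and 37.2 with shFAM83H-AS1_2. All 6 knockdown libraries were above all 3 controls, but the shFAM83H-AS1_1 libraries were themselves widely spread (47.8 ± 23.0). The log2 differences from shNC were 1.24 and 0.85 (SE 0.33), and the first was 0.88 without the third shFAM83H-AS1_1 library, which had the highest value of the 9. KRT15 relative to KRT14 in FPKM was 0.359 to 0.779 in shNC, 1.21 to 3.11 with shFAM83H-AS1_1, against 0.555 to 0.658 with shFAM83H-AS1_2. Which of them is higher depends on the model lengths in FPKM, 5969 bases for KRT15 and 2255 for KRT14. In reads, KRT15 was also above KRT14 with shFAM83H-AS1_2 (3124, 3623 and 3610 against 2126, 2402 and 2072). In shNC the reads were 1133, 2363 and 2007 against 1191, 1146 and 1797.

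Among the stress keratins, KRT6B, a type II chain of activated epidermis, was the only 1 whose mean differed from control by more than 0.5 on the log2 scale in any comparison with shNC. It stood at 119, 172 and 90.7 FPKM in shNC, 100.4, 50.7 and 39.1 with shFAM83H-AS1_1, against 139.9, 118 and 81.7 with shFAM83H-AS1_2. The shFAM83H-AS1_1 libraries overlapped the controls through their first replicate, and the shFAM83H-AS1_2 libraries lay in and around the control range. The log2 differences from shNC were -1.06 and -0.15 (SE 0.35). The first was -0.78 without the third shFAM83H-AS1_1 library and -0.48 with library weights, and limma called neither.

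With shFAM83H-AS1_1 the means of KRT5 and KRT6B lay on opposite sides of control, and the makeup of the type II transcripts was therefore considered beside their sum. The FPKM of KRT5, KRT6A and KRT6B added up to 167 ± 36.6 in shNC, 192 ± 63.1 with shFAM83H-AS1_1, against 212 ± 37.7 with shFAM83H-AS1_2, with overlapping libraries. Within that sum, KRT5 made up 28.9%, 15.5% and 30.5% in the shNC libraries, 61.5%, 63.1% and 77.8% with shFAM83H-AS1_1, against 43.4%, 45.0% and 52.5% with shFAM83H-AS1_2. The shares did not overlap between any of the groups, and their size depends on the model lengths in FPKM (4133 bases for KRT5, 2302 for KRT6B). They too were chosen after the values had been seen and are given with no test. The type I sum (KRT14, KRT15, KRT16 and KRT17) was 84.2 ± 10.6, 106 ± 34.2 and 123 ± 3.43 FPKM in the same order, and its shFAM83H-AS1_1 libraries ranged from 68.2 to 134, beyond the other groups on both sides.

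**Figure D3:**
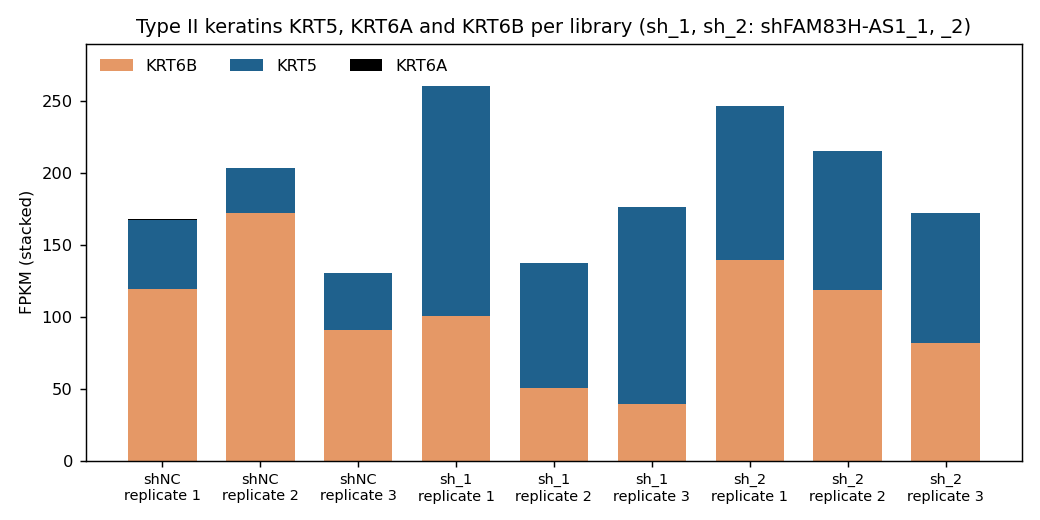
Stacked bars of the FPKM of the type II keratins KRT5, KRT6B and KRT6A in each library, starting at 0, with sh_1 and sh_2 for shFAM83H-AS1_1 and shFAM83H-AS1_2. KRT6B fills most of each control bar, KRT5 most of each shFAM83H-AS1_1 bar, and KRT6A is too low to be seen.

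For KRT16 and KRT17, the type I stress chains, the group means lay close together. KRT16 (ENSG00000186832, chromosome 17, 41609778 to 41615899, minus strand), a partner of the KRT6 chains in wounded and psoriatic epidermis, was at 8.09, 12.7 and 9.25 FPKM in shNC, 11.7, 8.96 and 18.1 with shFAM83H-AS1_1, against 10.98, 14.7 and 13.2 with shFAM83H-AS1_2. The groups overlapped, and the log2 differences from shNC were 0.31 and 0.35 (SE 0.24). Without the third shFAM83H-AS1_1 library the first was 0.05.

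KRT17 (ENSG00000128422, chromosome 17, 41619442 to 41624842, minus strand), which is made in hair follicles, healing wounds and many carcinomas, was at 19.9, 22.9 and 9.80 FPKM in shNC, 28.5, 8.62 and 19.4 with shFAM83H-AS1_1, against 24.8, 18.3 and 14.3 with shFAM83H-AS1_2. Its spread within each group was wider than any difference between the means, which were 17.5 ± 6.87, 18.8 ± 9.94 and 19.1 ± 5.30. The log2 differences from shNC were 0.03 and 0.17 (SE 0.41), so a difference as large as that of KRT14 could have been missed, and the first was -0.06 without the third shFAM83H-AS1_1 library. Reads of KRT14, KRT16 and KRT17 can also be misplaced among themselves or on pseudogenes. The coding sequence of KRT14 was 88.7% identical to that of KRT16, with a longest shared run of 158 bases, and 85.2% identical to that of KRT17. Of the 9 pseudogenes of these genes in the table, KRT16P6 was at 2.49 to 7.17 FPKM, with a shared run of 88 bases with KRT14, and the other 8 did not exceed 0.163.

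Across the whole table, limma (log2(FPKM + 1), Benjamini-Hochberg adjusted p under 0.05) called 1.57% of the 11875 tested genes between shFAM83H-AS1_1 and shNC, 0.0253% between shFAM83H-AS1_2 and shNC, and 0.0926% between the hairpins. Of the 6 tested keratins it called 1, 0 and 0 in that order, the 1 being KRT5. At an unadjusted p under 0.05 it counted 4, 3 and 2 keratins, beside 25.3%, 6.68% and 8% of all tested genes, and voom on the recovered reads also called 1, 0 and 0. The call of KRT5 was lost without the second or the third shNC library, with no filter on low values, and when shNC and shFAM83H-AS1_1 were fitted alone. When shNC and shFAM83H-AS1_2 were fitted alone with the replicate number as a block, 3 keratins were called in place of 0 (KRT5, KRT14 and KRT15), beside 5.2% of all tested genes. Without the block that fit called 1 (KRT5), beside 0.278% of genes.

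Libraries that did not overlap with the control were higher for 2 keratins with shFAM83H-AS1_1 (KRT5 and KRT15), beside 14.4% of all tested genes, and for 3 with shFAM83H-AS1_2 (KRT5, KRT14 and KRT15), beside 11.1%. None of the 6 was lower without overlap, beside 15.3% and 10.9% of genes. Between the hairpins, KRT14 was higher with shFAM83H-AS1_2 without overlap, beside 6.13%, and none was lower, beside 5.88%. The median log2 difference of the 6 was 0.17 with shFAM83H-AS1_1 and 0.48 with shFAM83H-AS1_2, against -0.08 and -0.01 over all tested genes. Since these genes were picked with their differences known, nothing is read from the counts, and since both knockdowns share the control libraries, the sets of values stand side by side without a measure of their likeness.

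**Figure D4:**
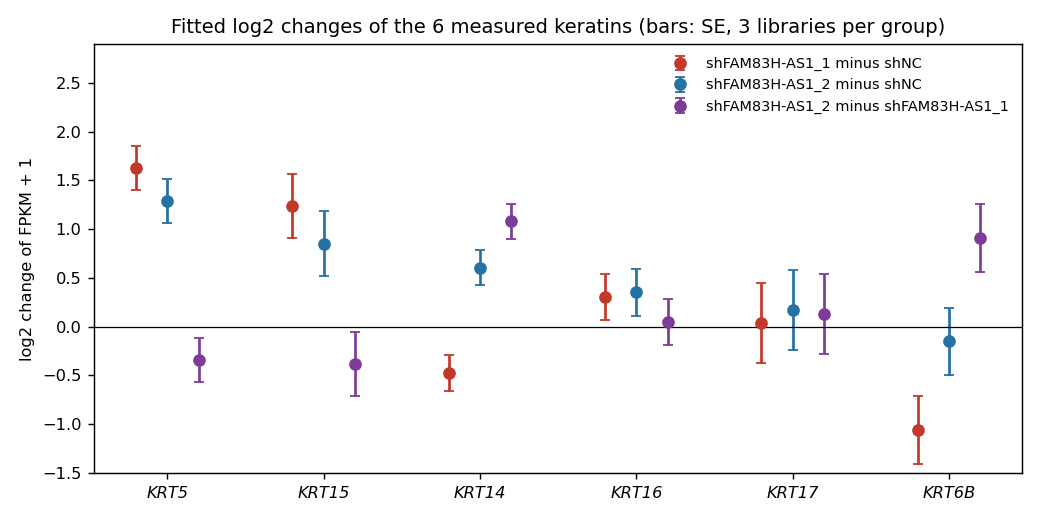
Fitted log2 differences of FPKM + 1 for the 6 measured keratins in the 3 comparisons, with bars for the SE (3 libraries per group). KRT5 and KRT15 lie above 0 against shNC with both hairpins, KRT14 lies at -0.48 and 0.61, and KRT16 and KRT17 lie near 0.

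These keratin genes are rich in GC. The GC content of the 6 tested keratins and KRT6A was 55.8% to 61.0%, against a median of 48.8% over tested genes, and Spearman's rho of deviations from the mean level with GC ran from -0.6 to 0.58 over the libraries. With those trends removed, the log2 differences of KRT5 were 1.55 and 1.21, of KRT14 -0.61 and 0.50, of KRT15 1.16 (0.82 without the third shFAM83H-AS1_1 library) and 0.78 and of KRT6B -1.14 and -0.23 for shFAM83H-AS1_1 and shFAM83H-AS1_2. The difference of KRT14 between the hairpins was then 1.11 and was called by limma, beside 0.32% of genes. That call was lost when the third shFAM83H-AS1_1 library was also left out (0.98, limma adjusted p = 0.0861) or the replicate block added. With GC trends kept, KRT14 was called with library weights and without the first shFAM83H-AS1_1 library.

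The genes lie in the keratin clusters of chromosome 12 (type II, with KRT18) and chromosome 17 (type I), where neighbours had very different levels. KRT5 lies 21.3 kb from KRT6A and KRT6A 13.4 kb from KRT6C, so the barely detected KRT6A and KRT6C sit between the abundant KRT5 and KRT6B. KRT16 and KRT17 are 3.54 kb apart, KRT14 and KRT16 22.9 kb, and KRT15 and KRT14 59.7 kb. Over the 9 libraries the highest cluster member was KRT19, a type I chain of simple epithelium, at a mean of 1283 FPKM, followed by KRT8 at 332 and KRT7 at 162, so that the 7 basal and stress chains together came to 20.5% to 22.9% of the sum of KRT8, KRT18 and KRT19 in shNC, 8.28% to 19.2% with shFAM83H-AS1_1, against 19.9% to 23.8% with shFAM83H-AS1_2. The shFAM83H-AS1_1 libraries were the 3 lowest in this ratio.

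**Figure D5:**
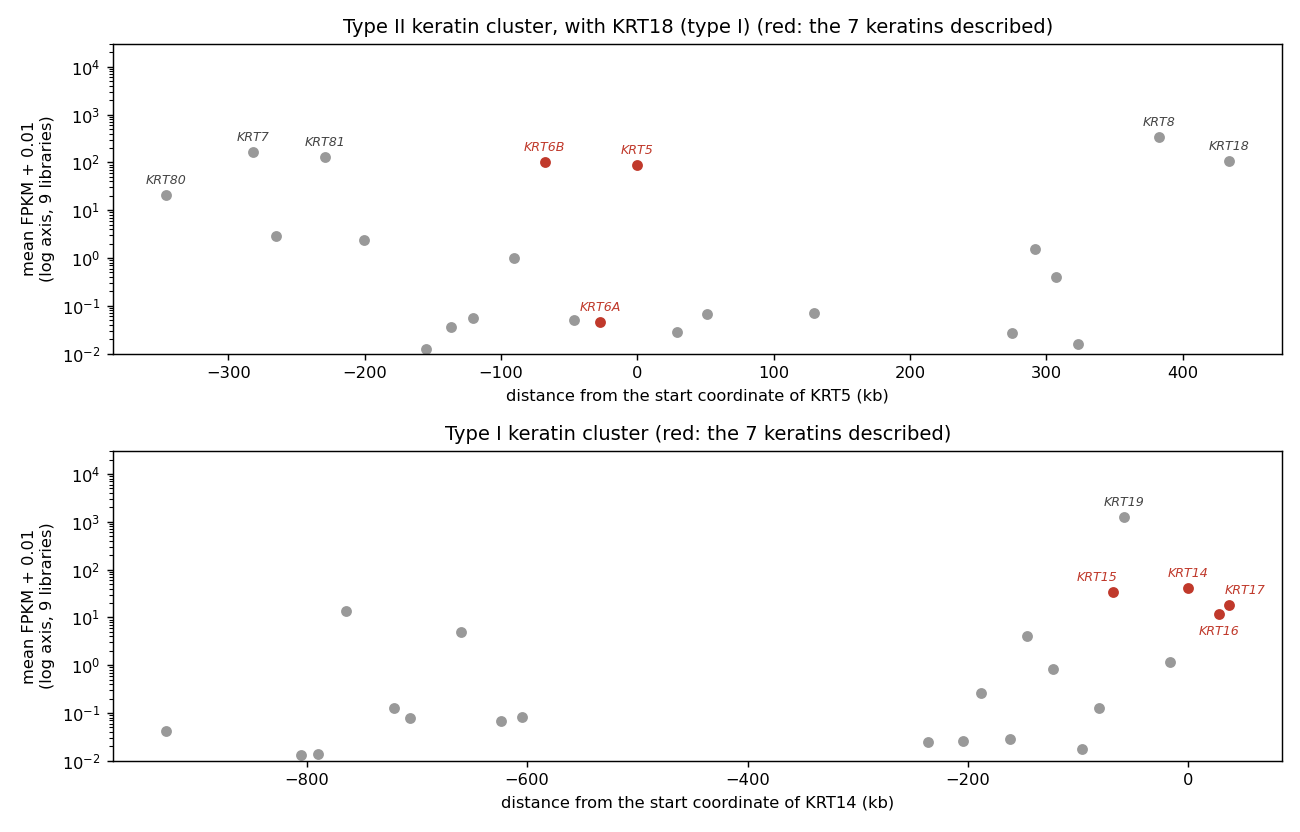
Mean FPKM + 0.01 over the 9 libraries (log axis) of each keratin gene in the table against its distance in kb from KRT5 (upper panel, 22 genes) or KRT14 (lower panel, 23 genes), with the genes described here in red. KRT6A lies near 0.05 between KRT6B and KRT5, which both lie near 100.

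Among themselves the 6 keratins varied in more than 1 pattern. Over the 9 libraries Pearson's r of log2(FPKM + 1) was 0.86 for KRT15 with KRT16, 0.74 for KRT5 with KRT15 and 0.58 for KRT14 with KRT6B, but -0.04 for KRT5 with KRT14 and -0.47 for KRT5 with KRT6B. These values describe 9 libraries in 3 groups, which share group differences and GC trends. By the same measure the genes most like KRT5 were HDAC6 (0.985), ZNF703 (0.984) and MMP24OS (0.975). Those most like KRT14 were LCMT2 (0.935), AKR1C2 (0.931) and KRT9 (0.921), the last a keratin of the same cluster, and those most like KRT15 were ATP2A3 (0.974), WDTC1 (0.971) and SGSM2 (0.968). For KRT6B they were KDM2B (0.974), NUP210 (0.973) and CRELD2 (0.972), for KRT16 ADCK5 (0.967), PPFIA3 (0.960) and KREMEN2 (0.960), and for KRT17 EPB41L1 (0.946), RTN4R (0.927) and JRK (0.921). Without the third shFAM83H-AS1_1 library these values ran from 0.895 to 0.985 over 8 libraries. The genes were picked for the highest r among all tested genes over these same libraries. High values follow from that choice, also over the 8 libraries.

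The other keratins were led by the chains of simple epithelium. Of 48 listed, 38 were in the table used here and 14 were tested. None of the 14 was called by limma or voom in any comparison. At an unadjusted p under 0.05 limma counted 7, 2 and 6 of them, beside 25.3%, 6.68% and 8% of all tested genes. KRT19 was at 864 ± 136 FPKM in shNC, 1821 ± 869 with shFAM83H-AS1_1, against 1164 ± 76.3 with shFAM83H-AS1_2. KRT8 was at 219 ± 45.1, 481 ± 210 and 298 ± 12.7, and KRT7 at 154 ± 8.51, 187 ± 41.9 and 144 ± 11.4 FPKM. The third shFAM83H-AS1_1 library, at 2810 FPKM of KRT19 and 721 of KRT8, was the highest of the 9 for both. Without it the shFAM83H-AS1_1 means were 1326 FPKM for KRT19 and 360.4 for KRT8. The log2 differences of KRT8 from shNC were 1.06 and 0.46 (SE 0.26). Of the 14, 6 were higher than control without overlap with shFAM83H-AS1_1, beside 14.4% of all tested genes, and 5 with shFAM83H-AS1_2, beside 11.1%. Lower without overlap were 0 and 1, beside 15.3% and 10.9%. The median log2 difference of the 14 was 0.23 with shFAM83H-AS1_1, against 0.28 with shFAM83H-AS1_2.

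Keratin filaments are tied to the cell surface by desmosomes and hemidesmosomes. Of 26 listed genes of filament anchors and linkers, 21 were tested and 1 was called, in the comparison of shFAM83H-AS1_1 with shNC, beside 1.57% of all tested genes. ITGB4, the integrin chain that links basal keratins to the hemidesmosome, was at 15.1, 11.4 and 13.99 FPKM in shNC, 31.3, 26.0 and 52.4 with shFAM83H-AS1_1, against 34.3, 28.9 and 39.4 with shFAM83H-AS1_2. All its knockdown libraries lay above all controls. Of all tested genes, 14.4% were higher without overlap with shFAM83H-AS1_1 and 11.1% with shFAM83H-AS1_2. The log2 difference of ITGB4 was 1.32 with shFAM83H-AS1_1 (limma, adjusted p = 0.0327) and 1.28 with shFAM83H-AS1_2 (limma, adjusted p = 0.148), SE 0.23, and the hairpins differed by -0.04. Without the third shFAM83H-AS1_1 library the first was 1.04. The call held in 2 of the 9 fits that left out 1 library each, with limma adjusted p up to 0.114, and was lost without any shNC library or any shFAM83H-AS1_2 library. It was lost as well with no filter and when shNC and shFAM83H-AS1_1 were fitted alone. The median of the 21 was 0.00 and 0.07. In the 3 comparisons 5, 3 and 0 of them were under an unadjusted p of 0.05, beside 25.3%, 6.68% and 8% of all tested genes. None of the 21 was called between the hairpins by limma or voom.

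Of 26 transcription factors known from the control of keratin genes, 21 were tested. Under an unadjusted p of 0.05 there were 4, 0 and 2 of them, beside 25.3%, 6.68% and 8% of all tested genes. None of these factors was called by limma or voom in any comparison. The most abundant were JUNB, an AP-1 subunit, at 81.3 ± 12.6 FPKM in shNC, 107 ± 20.9 with shFAM83H-AS1_1, against 84.4 ± 15.2 with shFAM83H-AS1_2, CEBPB, a leucine zipper factor, at 46.7 ± 4.57, 71.1 ± 19.9 and 59.4 ± 6.75, and SOX9 at 54.3 ± 3.57, 44.1 ± 6.77 and 56.3 ± 3.99. TP63, looked up after its values had been seen because it encodes the p63 factor of basal epithelium, was at 1.21 ± 0.790, 0.551 ± 0.330 and 1.24 ± 0.560 FPKM, with overlapping groups. Over the 9 libraries TP63 ranged from 0.292 to 1.73 FPKM, and its relation to KRT5 was not tested.

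Of 26 genes of epidermal activation and cornification, which accompany KRT6 and KRT16 in activated skin, 17 were in the table used here and 13 were tested. None of the 13 was called by limma or voom. At an unadjusted p under 0.05 limma counted 5, 1 and 4 of them, beside 25.3%, 6.68% and 8% of all tested genes. PI3, an elastase inhibitor of inflamed epidermis, was at 606, 322 and 352 FPKM in shNC, 219, 185 and 148 with shFAM83H-AS1_1, against 377, 443 and 206 with shFAM83H-AS1_2. The shFAM83H-AS1_1 libraries were all below the controls, as for 15.3% of all tested genes, and overlapped the shFAM83H-AS1_2 libraries. Of the 13 tested genes listed, 1 was lower and 3 were higher than control without overlap with shFAM83H-AS1_1, beside 15.3% and 14.4% of all tested genes. The median log2 difference of the 13 was 0.26 with shFAM83H-AS1_1 and 0.10 with shFAM83H-AS1_2. The log2 difference of PI3 was -1.17 with shFAM83H-AS1_1. SLPI, a related inhibitor, was at 246 ± 29.3, 435 ± 164 and 267 ± 32.8 FPKM, and S100A9, a calgranulin, at 120 ± 28.4, 143 ± 24.7 and 169 ± 48.0.

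Genes that mark other breast cell states were looked at for the same libraries. Of 17 markers of basal-like breast cancer 14 were tested, of which 9 had a higher mean log2 level with shFAM83H-AS1_1 (median log2 difference 0.13) and 9 with shFAM83H-AS1_2 (median 0.12). Of all tested genes, 42.05% and 48.23% were higher in these comparisons. At an unadjusted p under 0.05 limma counted 5, 2 and 4 of the 14 in the 3 comparisons, beside 25.3%, 6.68% and 8% of all tested genes. 1 of them, ID4, was called between shFAM83H-AS1_1 and shNC, beside 1.57% of all tested genes, and between the hairpins, beside 0.0926%. ID4, an inhibitor of helix-loop-helix factors, fell with shFAM83H-AS1_1 from 5.68 ± 2.57 to 0.515 ± 0.184 FPKM (log2 difference -2.06, limma adjusted p = 0.0169). With shFAM83H-AS1_2 it was at 6.08 ± 1.55, and the hairpins differed (log2 difference 2.21, limma adjusted p = 0.0270). Of 15 luminal markers 10 were tested. Of these, 8 were higher than control with shFAM83H-AS1_1 (median log2 difference 0.37) and 4 with shFAM83H-AS1_2 (median -0.09). Between the hairpins 1 was higher with shFAM83H-AS1_2 (median -0.46), beside 60.59% of all tested genes. Under an unadjusted p of 0.05 limma counted 4, 1 and 5 of the 10. SPDEF, an ETS factor of luminal and secretory cells, was the only 1 called, in the same comparisons as ID4. It rose with shFAM83H-AS1_1 from 3.85 ± 1.17 to 10.3 ± 2.16 FPKM (log2 difference 1.23, limma adjusted p = 0.0280), while shFAM83H-AS1_2 was at 3.09 ± 0.483 (hairpins differing by -1.46, limma adjusted p = 0.0355). Of the 9 fits that left out 1 library each, the call of ID4 against shNC held in 7 (lost without shNC replicate 1 or 3) and that of SPDEF in 3, and each call between the hairpins held in 3. The calls against shNC were also lost with no filter and in fits of those groups alone, and the calls between the hairpins with voom, with no filter and with the replicate block. Without the third shFAM83H-AS1_1 library the log2 difference of SPDEF from shNC was 1.08. The summed FPKM of the luminal list was 1097 to 1422 in shNC, 2025, 1685 and 3817 with shFAM83H-AS1_1, against 1517 to 1681 with shFAM83H-AS1_2. KRT8, KRT18 and KRT19 made up 95.3% to 98.3% of that sum, and its part in the keratin differences was not tested. Of the lists for other cells, the immune list summed to 0.232 to 1.11 FPKM, the mesenchymal list to 2.31 to 7.04, the myoepithelial list to 5.32 to 18.1, mostly MME, and the endothelial list to 19.7 to 32.1, mostly KDR. None of the 1 myoepithelial, 2 mesenchymal and 1 endothelial genes tested was called by limma or voom. With shFAM83H-AS1_1, 0, 1 and 0 of them were under an unadjusted p of 0.05, beside 25.3% of all tested genes.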

How the data were processed

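The authors deposited 1 table of FPKM per gene for 9 libraries. The submitters' processing notes list hg38, HTSeq 0.6.0, Bowtie2 2.2.3 and HISAT2 2.1.0 with no roles. The strand setting, the annotation release and the treatment of reads matching several genes are steps not given in the sources used here. Of 31005 lines, 1 stray line of text was left out. A gene name table gave symbols for 30883 identifiers, and GENCODE release 29 gave 107 more.

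Groups and replicate numbers come from the titles. A gene was tested where 3 or more of the 9 libraries reached 1 FPKM (11875 genes), and p-values measure only the spread between these libraries, which may be technical. Values on log2(FPKM + 1) were fitted with limma 3.58.1 (R 4.3.3, variance trend) with all 9 libraries in 1 fit, two-sided, with Benjamini-Hochberg adjustment over all tested genes at 0.05. A log2 difference on this scale understates that of low genes. Each FPKM is a whole number of read-sized steps, which gave whole reads for 100% of genes within 0.001 reads. These reads entered voom as an alternative and give the depths, 15258700 to 18100485 gene reads per library.

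The alternatives were a pseudocount of 0.1, no filter, a filter at 5 FPKM, median-ratio and quantile scaling, the replicate number as a block, 2-group fits, voom, removal of GC trends, library weights and each library left out. GC removal without the third shFAM83H-AS1_1 library was chosen after seeing the data. For shNC against shFAM83H-AS1_2, libraries of the same number deviated together from their means (r = 0.196, 0.351 and 0.394). Since every pair was above 0.1, numbers were read as pairing those groups, from the data and not from a labelled batch. Unlike numbers of those groups gave r from -0.372 to -0.003. Deviations sum to 0 within a group, so r above 0 for like numbers pushes r for unlike numbers below 0, which is no separate support. The GC trends of these libraries ran in the same order of replicate number (rho -0.4, -0.04 and -0.6 in shNC, against -0.13, 0.58 and -0.38 with shFAM83H-AS1_2). Their part in the pairing was not tested. Across other groups, unlike numbers reached 0.445 (shNC replicate 3 with shFAM83H-AS1_1 replicate 2), so the pairing remains an assumption. For shNC and shFAM83H-AS1_1, r was 0.183, -0.393 and -0.246, so those share only a number.

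The 7 keratins, the gene lists and the alternatives were chosen with earlier results of these data known. Text names all 7, the target, the called members of each list (otherwise the 3 with the highest mean FPKM), the 3 genes most correlated with each tested keratin (clone-like and LINC symbols left out) and near-identical copies. The fit was tested on simulated data with independent spread for each gene and library. These held no GC trends and no library that stood apart, so that test does not cover such features of the real libraries. Python 3.11.15 with numpy 2.4.6, pandas 2.3.3, biopython 1.88 and matplotlib 3.10.9 prepared values, sequences and plots.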

Additional observations from a re-analysis of the deposited data

Results flagged for a closer look

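KRT14 was singled out because its libraries lay on opposite sides of the control mean with the 2 hairpins: every shFAM83H-AS1_1 library lay below the shNC mean of 37.5 FPKM and every shFAM83H-AS1_2 library above it. The log2 difference of shFAM83H-AS1_2 minus shFAM83H-AS1_1 was 1.08 (SE 0.18). The limma test of that difference gave an adjusted p of 0.0801 over all tested genes, which does not pass 0.05, and KRT14 was among the genes picked with these values known.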

How the results depend on the processing

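Between shFAM83H-AS1_1 and shNC, 1 keratin (KRT5) was called as reported, beside 1.57% of all genes. With no filter 0 were called (0.0968% of genes), as with only those groups fitted (0.0758%) and with that fit plus the replicate block (0%). Library weights gave 2 (KRT5 and KRT15, beside 19.9%), and GC trends removed plus the block gave 3 (with KRT6B, beside 6.24%). Leaving out single libraries gave 0 to 2. The count was 0 without shNC replicate 2 (0.261% of genes) or 3 (0.0758%) and 2 without the second shFAM83H-AS1_1 library (8.49%). Between shFAM83H-AS1_2 and shNC, 0 were called, beside 0.0253% of genes. The counts were 1 with only those groups fitted (0.278%), 3 with that fit plus the replicate block (5.2%) and 3 with library weights (9.42%). With GC trends removed, 1 was called with the block (0.101%) and 1 without the third shFAM83H-AS1_1 library (0.985%). Single libraries left out gave 0 to 1, the 1 being KRT5 without shFAM83H-AS1_1 replicate 2 (0.0505%) or 3 (0.354%). Between the hairpins, where 0 were called beside 0.0926% of genes, 1 (KRT14) was called with GC trends removed (0.32%) or with library weights (1.25%). Single libraries left out gave 0 to 1, the 1 being KRT14 without the first shFAM83H-AS1_1 library (0.0505%). The replicate block in the fit of all 9 libraries left the counts at 1, 0 and 0. Directions turned only for small differences: KRT17 with shFAM83H-AS1_1 was at -0.072 with GC trends removed, -0.072 with GC trends removed plus the block and -0.13 with GC trends removed and the third shFAM83H-AS1_1 library left out, and ranged from -0.32 to 0.48 with single libraries left out. KRT17 with shFAM83H-AS1_2 ranged from -0.18 to 0.39, and between the hairpins it was -0.053 with library weights and ranged from -0.32 to 0.49. KRT16 with shFAM83H-AS1_1 was at -0.043 with GC trends removed without that library, and between the hairpins it ranged from -0.17 to 0.30. KRT6B with shFAM83H-AS1_2 was at 0.063 with library weights and ranged from -0.37 to 0.089. The cause of these shifts was not tested. With 3 libraries a group, only large differences can pass; the 16 reads of KRT6A allow no comparison.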
